A study of Caenorhabditis elegans with 8 samples.

Results

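The 4 mixed-stage embryo libraries of a series of 8 were described here, chosen by their label as mixed embryo; the other 4 libraries are of larvae and served only as a contrast. All 8 libraries came from Caenorhabditis elegans strain VC199, whose labelled genotype is sir-2.1(ok434) IV, an allele of the gene for an NAD-dependent histone deacetylase, so embryos and larvae shared this allele and no wild-type library was analysed. Embryos were obtained by bleaching a culture of parents that had not been synchronised, which leaves a pellet spanning fertilisation to hatching, and poly(A) RNA was sequenced in a strand-specific way. The larvae are labelled L3, and the methods of the study describe them as L2 to L3.

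A worm embryo starts with messenger RNAs loaded by the mother, among them the RNAs for the proteins that set up cell polarity and cell fate. Zygotic transcription then begins in the somatic cells, first with short-lived regulators of the founder lineages and later with transcription factors of single tissues. In the later part of embryogenesis cell division stops, the epidermis closes around the embryo, the first cuticle is made, and muscle, gut and neurons begin to work. In RNA from a whole pellet, fewer cells or embryos of a kind and less RNA in each of them cannot be told apart.

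The embryo libraries held 31292935, 21522741, 16300947 and 18612206 reads assigned to genes in replicates 1 to 4, and the larvae libraries held 13687095 to 22419153. The label of replicate 1 joins a pair of library names, whereas each of the others carries a single one. The methods of the study speak of biological replicates, and the labels do not say that they came from separate cultures, so the spread given below is that between these samples. The targeted gene itself (sequence name R11A8.4), which lies on IV between 10363300 and 10366216 of WS220, had 2424, 1731, 1225 and 1505 reads and 35.8, 38.6, 35.9 and 36.1 TPM (abundance per length, scaled to the library) in embryo replicates 1 to 4. Its level differed from larvae by a log2 value of 0.44 (SE 0.13, edgeR adjusted p-value 0.0097). Reads were thus assigned to the locus in every library labelled sir-2.1(ok434), and a count over the whole gene does not test a deletion within it. Replicate 1 stood apart most often. Among the 8144 genes with a mean of at least 10 CPM (reads scaled to library size with TMM factors), it was the library farthest from the mean of the 4 for 40.6% of genes, against 25.2%, 26.5% and 7.67% for replicates 2, 3 and 4. Transcripts of adult tissue were highest in replicate 2 and those of sperm in replicate 4, as described below.

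The embryo profile was led by ribosomal proteins, chromatin proteins and the cuticle collagen sqt-3. At least 1 TPM was reached by 12563 genes, at least 10 TPM by 8078 and at least 100 TPM by 1563, while 2125 genes had no read in any of the 4 libraries. The 20 genes with the highest mean TPM held 12.1% ± 0.646 of all TPM (SD, n = 4), the top 100 held 30.4% ± 0.917 and the top 1000 held 68.0% ± 1.06. By reads in place of TPM, the 20 leading genes held 6.52% ± 0.559. TPM divides by length, and the 20 genes that led by TPM had a median exon length of 476 bases, against 1622 for genes with a mean CPM of at least 10. When TPM was recalculated from annotated exon lengths, a choice made after seeing the data, the share of the leading 20 genes was 9.12% ± 0.708, and 11 of the 20 genes led by both calculations.

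Of the 20 leading genes, 9 encode ribosomal proteins. rpl-29, which encodes a protein of the large ribosomal subunit, had 18854, 20752, 14346 and 25674 TPM in replicates 1 to 4, the highest mean of any gene, but its exons span only 240 bases and it ranked 287 by CPM. Replicate 3 was the lowest library for rpl-29 and also for rps-29 (11121, 5680.3, 3829.96 and 7842 TPM) and rpl-39 (5632, 2853, 1918 and 4558 TPM). F13H10.8 came next by deposited TPM with 7201, 7509, 10719 and 8654, yet it ranked only 1112 by TPM from exon lengths and had 2072, 1331, 1318 and 1332 reads, so its place differed between the length measures.

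The chromatin proteins held their place under either calculation. hmg-1.1, which encodes a DNA-bending protein of the high mobility group box class, had 6989, 9115, 10343 and 7291 TPM, the highest TPM from exon lengths and the second highest CPM. Its level was higher in embryos than in larvae (596 ± 155 TPM, SD, n = 4) by a log2 difference of 2.99 (SE 0.24, edgeR adjusted p-value 5.08e-07). The linker histone genes his-24 (3798, 6481, 5872 and 5062 TPM) and hil-7 (5559, 4739.8, 6812 and 5617 TPM) and the replacement histone H3.3 gene his-72 (3249.8, 4205, 4175 and 4030.3 TPM) were also among the 20. All 3 were higher in embryos, with log2 differences of 2.57, 5.11 and 1.97 (edgeR adjusted p-values of at most 1.01e-05). his-24 and his-72 were lowest in replicate 1.

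By CPM, which carries no length term, the leading gene was eef-1A.1, which encodes the elongation factor that delivers aminoacyl-tRNA to the ribosome, with 5413, 9791, 7719 and 7923 CPM. The collagen gene sqt-3 came next after hmg-1.1 and had the lowest coefficient of variation (CV, the SD divided by the mean, of CPM) of the 10 highest genes, with 4287, 4393, 5095 and 4843 CPM. aqp-2, which encodes a water channel, had 3155, 3389.8, 6045 and 3556 CPM and was clearly highest in replicate 3. pdi-2, for a protein disulfide isomerase that serves collagen synthesis, act-4 for actin and dpy-17 for a collagen of the first cuticle were further members of the 10 highest by CPM.

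**Figure D1:**
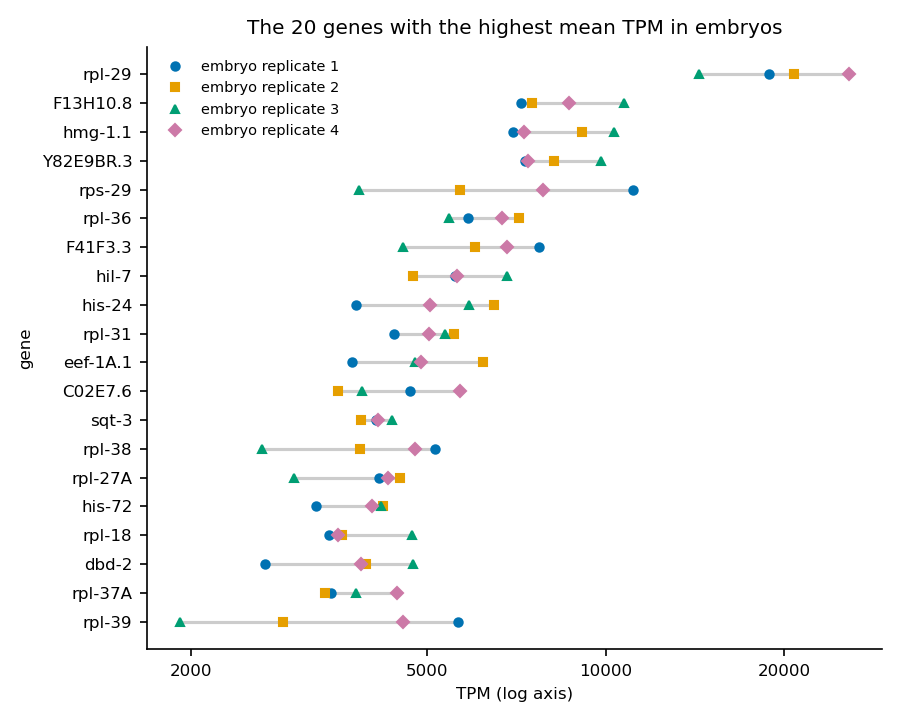
TPM (log axis) of the 20 genes with the highest mean TPM in embryos; each point is 1 embryo library and the grey line joins the lowest and the highest. sqt-3 lies within a narrow range, 3867 to 4358 TPM, whereas rps-29 and rpl-39 are lowest in replicate 3 and highest in replicate 1.

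Summed by family, the 62 cytosolic ribosomal protein genes held 16.3%, 16.109%, 12.9% and 16.9% of TPM in replicates 1 to 4, but only 4.65% ± 0.478 of reads (SD, n = 4). Replicate 3 was thus low for the family as a whole by either measure, though rpl-18 was instead highest there with 4714 TPM. Short genes in general were low in replicate 3. Their median log2 deviation from the mean of the 4 libraries was -0.16 under 300 bases of exon and -0.08 at 300 to 500, by CPM. The family had a median exon length of 513 bases, and the part of length was not tested. Translation factors followed with 1.45% ± 0.194 of TPM, histones with 1.26% ± 0.183, splicing proteins with 1.08% ± 0.162 and nuclear-encoded subunits of mitochondrial respiration with 0.963% ± 0.0543. Replicate 1 was the lowest library for each of these 4 families by TPM. By reads, respiration was lowest in replicate 2, at 0.762% against 0.768% in replicate 1. Most histone genes of the replication-dependent class make RNA without a poly(A) tail, so the histone share of a poly(A) library is not the share in the cell.

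The mix of programmes was followed with 13 gene lists that together held 267 genes and 3.66% ± 0.136 of TPM (SD, n = 4). Each list marks a process or tissue, and a further list holds the dosage compensation genes. Embryos were set against larvae with the quasi-likelihood test of edgeR, which called 5054 genes higher in embryos and 5004 lower at an adjusted p-value under 0.05. These are 37.2% and 36.9% of the 13571 genes tested, the background against which the count in each list is read. Scaled by library totals alone, which put the median of all genes at 0.53 in place of 0.03 on the log2 scale, the split was 6607 higher and 3683 lower. The larvae are the only contrast available, so a list that is low in embryos is low relative to larvae of this stage.

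**Figure D2:**
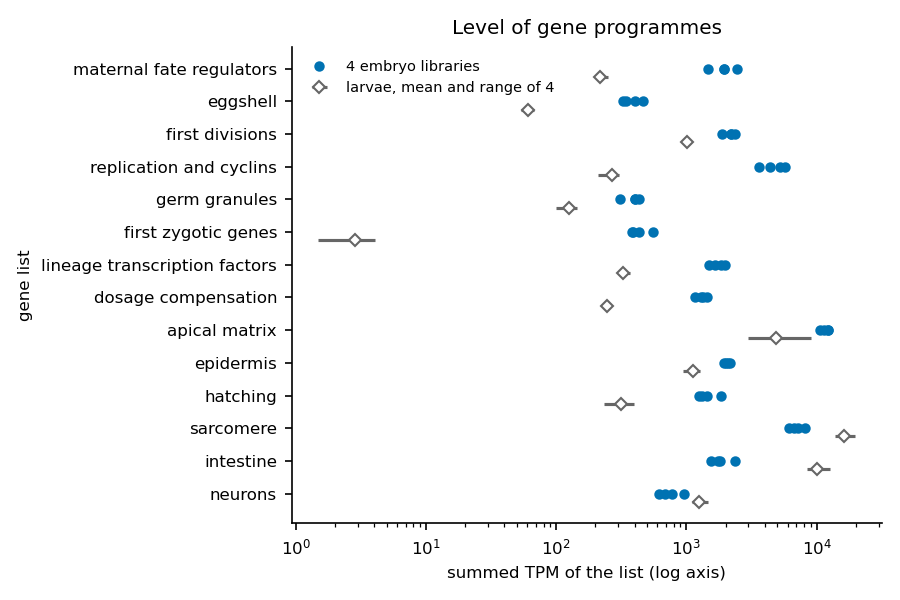
Summed TPM of 14 gene lists (log axis); filled points are the 4 embryo libraries, and the open diamond with its line is the mean and range of the 4 larvae libraries. The lists of first zygotic genes and of replication and cyclins lie farthest to the right of larvae, and sarcomere, intestine and neuron genes lie to the left.

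Maternal regulators of cell fate were abundant. The 25 genes of this list summed to 1472, 1947, 2432 and 1942 TPM in replicates 1 to 4, against a larval mean of 217, with replicate 1 lowest and replicate 3 highest. All 25 were tested, of which 19 were higher in embryos and 3 lower, with a median log2 difference of 3.42 against 0.03 over all genes tested. pos-1, which encodes a zinc finger RNA-binding protein that specifies posterior fates, had 309, 436, 430.2 and 439 TPM and was higher than in larvae by 6.59 (SE 0.35, edgeR adjusted p-value 3.45e-08) on the log2 scale. Replicate 1 lay below the other 3 libraries, which were nearly alike.

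spn-4, for an RNA-binding protein that controls translation of maternal RNAs, had 141, 188, 267 and 199 TPM, and mex-5, for the protein that distinguishes the anterior cytoplasm, had 82.99, 136, 209.8 and 155 TPM. Both were highest in replicate 3 and lowest in replicate 1. nos-2, for a Nanos protein of the primordial germ cells, had 48.3, 57.1, 111 and 62.8 TPM and the largest difference from larvae in the list, 8.19 (SE 0.57, edgeR adjusted p-value 1.78e-07) on the log2 scale. The Pumilio gene puf-3 (7.15, 13.1, 24.5 and 21.6 TPM) and the oocyte maturation gene oma-2 (27.1, 36.3, 74.7 and 48.5 TPM) varied most between libraries, with CVs of 51.1% and 47.3%. skn-1, the gene for the transcription factor that specifies the EMS blastomere, had 216, 169, 183 and 129.8 TPM and did not pass the test, with a log2 difference of 0.09 (SE 0.16, edgeR adjusted p-value 0.653). The 3 members that were lower in embryos were lin-41, fbf-1 and fbf-2, which also act outside the embryo, in larval timing or in the germ line; fbf-1 and fbf-2 are near-identical copies, so their values are uncertain.

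The eggshell list was short and also held the kinase gene mbk-2, apart from which its members were low. The list of 14 summed to 329, 344, 464 and 400.5 TPM, against 60.4 in larvae, and mbk-2, for the kinase that acts at the change from oocyte to embryo, made up 255, 227, 323 and 240.02 TPM of this. Of the 12 members that passed the filter on low counts, 11 were higher in embryos and none was lower, with a median log2 difference of 1.85. The chondroitin proteoglycan genes cpg-1 and cpg-2 had 18.98, 22.6, 33.3 and 42.6 TPM and 9.002, 13.2, 33.2 and 31.6 TPM. For both, replicates 3 and 4 lay above replicates 1 and 2. perm-2 and perm-4, which encode proteins of the vitelline layer and were not tested, had 0.176, 6.12, 0.196 and 0.534 CPM and 0.205, 6.41, 0.196 and 0.801 CPM, and were thus high only in replicate 2.

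Genes of the first divisions and of the cell cycle were both higher in embryos, the second group by far more. The 26 genes for polarity, spindle and centrosome function summed to 1869.9, 2362, 2205 and 2197 TPM against 1004 in larvae, and 20 were higher in embryos and 1 lower, with a median log2 difference of 1.11. par-5, for the 14-3-3 protein of the PAR polarity system, was the most abundant with 595, 729.6, 654 and 759 TPM and was the 1 member called lower, by a log2 difference of -0.43 (SE 0.15, edgeR adjusted p-value 0.0198). This call turned to a difference of 0.06 when libraries were scaled by their totals alone. air-1, for an Aurora kinase of the spindle, had 63.6, 97.1, 115 and 78.5 TPM and was higher by 2.32 (SE 0.23, edgeR adjusted p-value 2.94e-06).

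All 20 genes of the replication and cyclin list were higher in embryos, with a median log2 difference of 2.54. They summed to 3627, 5733, 5271 and 4359.6 TPM, against 268 in larvae, with replicate 2 highest. The mitotic cyclin gene cyb-3 led with 1205, 1811, 1864 and 1319.9 TPM and differed from larvae by 5.05 (SE 0.24, edgeR adjusted p-value 1.66e-08) on the log2 scale. pcn-1, for the sliding clamp of DNA polymerase, had 549, 964, 1059 and 685 TPM, and mcm-7, for a subunit of the replicative helicase, had 259, 443, 334 and 335 TPM. Replicate 1 was the lowest library for each of these 3 genes, whereas replicate 3 was highest for the first pair and replicate 2 for mcm-7.

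Germ granule and germline chromatin genes were expressed at lower levels, 308, 433, 403 and 406 TPM over 21 genes against 126 in larvae. In embryos 15 were higher and 2 lower, with a median log2 difference of 1.07. meg-1, for an intrinsically disordered protein that organises P granules in the early embryo, had 27.4, 39.9, 42.7 and 36.1 TPM and a log2 difference of 7.66 (SE 0.45, edgeR adjusted p-value 5.86e-08). The members called lower were glh-1, for a Vasa-related helicase (9.38, 14.2, 10.2 and 14.1 TPM), and csr-1, for an Argonaute (5.34, 7.55, 8.55 and 7.32 TPM). Both were lowest in replicate 1.

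Dosage compensation genes were higher in embryos as a group. All 13 passed the test in this direction, with a median log2 difference of 1.52, and they summed to 1169, 1443, 1352 and 1294 TPM against 246 in larvae. dpy-30, which also serves histone methylation complexes, made up most of the sum with 683, 808, 824 and 807 TPM. dpy-27, for the condensin subunit particular to the X-bound complex, had 56.5, 80.4, 61.4 and 68.4 TPM and a log2 difference of 1.25 (SE 0.17, edgeR adjusted p-value 3.11e-05). dpy-21, for the histone H4 lysine 20 demethylase, had 58.3, 65.7, 62.1 and 55.5 TPM and a smaller difference of 0.53 (SE 0.17, edgeR adjusted p-value 0.0133). xol-1, the switch gene of sex determination, had 2.88, 6.14, 3.56 and 3.73 TPM, and with every larvae library at or under the floor of 3 reads it was at least 30.5-fold higher in embryos. Such bounds cover counting error only.

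The genes transcribed first from the zygotic genome gave the sharpest contrast with larvae. The 30 genes summed to 386, 558, 431 and 384 TPM in replicates 1 to 4 and to only 2.87 in larvae, and all 25 that passed the filter were higher in embryos. Because 5 members had too few reads to be tested and the filter could be passed through embryos alone, the count of 25 does not speak for all 30. The median log2 difference was 7.17, or 5.20 when the members with every larvae library at or under 3 reads were set to their bound. Replicate 2 was highest in sum.

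vet-6, one of the very early transcripts, was the most abundant with 66.4, 100.01, 67.3 and 61.7 TPM and a log2 difference of 8.05 (SE 0.57, edgeR adjusted p-value 2.06e-07). pes-10, an early transcript of somatic blastomeres, had 28.3, 50.8, 21.3 and 25.1 TPM. Both stood highest in replicate 2, pes-10 by more than its other 3 values differed among themselves. end-1, for the GATA factor that starts endoderm fate, had 16.39, 23.5, 24.99 and 14.9 TPM and was at least 65.6-fold higher than in larvae. The T-box genes tbx-37 (6.76, 8.29, 6.63 and 5.46 TPM) and tbx-38 (8.95, 11.99, 10.98 and 10.5 TPM), which act in anterior blastomeres, were at least 36.8-fold and 62.7-fold higher. med-1 and med-2, near-identical genes for GATA factors upstream of end-1, had 0.528, 0.745, 0.68 and 0.908 TPM and 0.881, 1.51, 1.42 and 0.409 TPM, and reads of such copies cannot be assigned with certainty.

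Transcription factors of single lineages were present at moderate levels. The 27 measured genes of 28 summed to 1650.4, 1836, 1969 and 1491 TPM against 326 in larvae, and of the 26 tested 23 were higher in embryos and none lower, with a median log2 difference of 1.58. Replicate 4 was lowest for 21 of the 27 by TPM. By CPM, an unlike measure, it was lowest for 9.68% of all 8144 genes. Log2 deviations from the mean of the 4 libraries allow a comparison within 1 measure. In replicate 4 their median was -0.21 for the list and -0.05 for all genes by TPM. By CPM these were -0.15 and -0.0004. pha-4, the organ-identity gene of the pharynx, had 121, 145, 141.8 and 117 TPM and differed by 1.57 (SE 0.18, edgeR adjusted p-value 9.16e-06). The proneural gene ngn-1 had 83.8, 95.2, 117 and 77.1 TPM and differed by 5.55 (SE 0.25, edgeR adjusted p-value 1.57e-08), while hnd-1, for a factor of the early mesoderm, had 41.2, 53.3, 37.1 and 40.4 TPM and differed by 8.07 (SE 0.41, edgeR adjusted p-value 2.50e-08). elt-2, which maintains the intestine, was the flattest of the list with 19.9, 19.2, 19.2 and 19.3 TPM and did not pass the test. hlh-1, the MyoD-related gene of body muscle, had 70.9, 78.1, 71.6 and 65.7 TPM but no reads in the count table, so it was not tested.

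Epidermal genes, which drive closure and elongation, were the most even list between libraries. They summed to 2169.6, 2027, 2079 and 1945 TPM against 1127 in larvae, and their median CV was 8.83% against 15.8% over all genes with a mean CPM of at least 10. Of 18 genes tested, 10 were higher in embryos and 6 lower. ajm-1 and dlg-1, for proteins of the epithelial junction, had 258, 222, 291 and 227 TPM and 245, 224, 268 and 208 TPM. unc-52, for the perlecan of the muscle basement membrane, had 178, 142.03, 134 and 148 TPM and was lower by a log2 difference of -1.27 (SE 0.17, edgeR adjusted p-value 2.59e-05).

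The apical matrix list split by gene. Its 24 members summed to 10698, 12198, 11482 and 12183 TPM, the largest sum of the lists of embryonic programmes, and larvae ranged from 2949 to 8992. Of 22 members tested, 3 were higher in embryos and 5 lower, both shares far under the background. The 3 were sqt-3 and the collagen genes dpy-17 and dpy-14. dpy-17 had 2133, 2717, 2502 and 2788 TPM and a log2 difference of 7.69 (SE 0.56, edgeR adjusted p-value 2.60e-07). dpy-14 had 1769.96, 2616, 1709 and 2422 TPM and a log2 difference of 8.83 (SE 0.76, edgeR adjusted p-value 8.68e-07). The 5 were the collagen genes sqt-1, dpy-13, dpy-9, dpy-8 and rol-6, each at or under 7 TPM in every embryo library; rol-6 had 0.842, 0.547, 1.34 and 0.502 TPM and a log2 difference of -9.47 (SE 0.49, edgeR adjusted p-value 2.47e-08). Without larvae replicate 1 the number of members higher in embryos was 15 in place of 3, so the small count rested on that library.

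Of the hatching list, 7 of 8 genes were measured and summed to 1429, 1250.5, 1854 and 1326 TPM against 316 in larvae. Of these genes, 2 were higher in embryos and 3 lower, with a median log2 difference of -0.45. The sum and the median member thus went opposite ways. hch-1, for the astacin protease that digests the eggshell, had 368, 344, 539 and 367 TPM and was higher by 8.93 (SE 0.69, edgeR adjusted p-value 3.84e-07). The cystatin gene cpi-2, with 1004, 876, 1279.7 and 926 TPM, made up most of the sum and was the other member called higher. Replicate 3 was highest for both, and the astacin gene nas-7 (26.2, 12.5, 12.1 and 12.4 TPM) was instead highest in replicate 1.

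Genes of working tissues were lower than in larvae, though far from absent. All 20 sarcomere genes were lower in embryos, with a median log2 difference of -2.32, and summed to 8119, 6189.8, 7181 and 6685 TPM against 16262. All 15 intestine genes were lower, with a median of -2.79, at 2349, 1536, 1819 and 1739 TPM against 10078. Of 20 measured neuron genes of 22, 15 were lower and none higher, with a median of -1.24, at 959, 615, 774 and 682 TPM against 1245. Replicate 1 was the highest library in all 3 sums and replicate 2 the lowest.

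Among sarcomere genes, act-4 led with 2249, 2065, 3067 and 2114 TPM. By TPM it was the 1 member of the 20 that was not highest in replicate 1. By CPM, an unlike measure, replicate 1 was highest for 23.2% of all 8144 genes. In replicate 1 the median log2 deviation was 0.37 for the list and 0.09 for all genes by TPM. By CPM these were 0.26 and -0.007. unc-54, for the main myosin heavy chain of body muscle, had 275, 197, 195 and 193 TPM and was lower by a log2 difference of -3.65 (SE 0.20, edgeR adjusted p-value 3.67e-08). tnt-2, for a troponin T, had 45.01, 23.3, 24.7 and 23.1 TPM and the largest difference of the list, -5.68 (SE 0.29, edgeR adjusted p-value 2.37e-08). In the intestine list the aspartyl protease gene asp-1 had 654, 392, 555 and 447 TPM and the brush border actin gene act-5 had 505, 337, 418 and 377 TPM. cpr-1, for a gut cysteine protease, had 5.52, 4.34, 3.23 and 2.40 TPM and differed by -8.45 (SE 0.41, edgeR adjusted p-value 1.95e-08).

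Of the neuron genes, snb-1, for synaptobrevin, had 350.1, 249.7, 340.4 and 273 TPM and did not pass the test. egl-3, for the proprotein convertase that processes neuropeptides, had 44.4, 21.4, 29.7 and 23.99 TPM and differed by -3.87 (SE 0.23, edgeR adjusted p-value 5.63e-08). snt-1, for synaptotagmin, had 25.7, 10.2, 10.6 and 12.3 TPM and the second highest CV of the list, 44.4%. Its level in replicate 1 was above that of any other library by more than the other 3 spanned. Replicate 1 was the highest library by TPM for all 19 neuron genes with a mean of at least 1 TPM. By CPM, an unlike measure, it was highest for 23.2% of all 8144 genes. Its median log2 deviation was 0.56 for the list and 0.09 for all genes by TPM. By CPM these were 0.51 and -0.007.

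Larval and adult sources that a bleached pellet could hold were looked at with 3 further lists. The 12 genes of molting summed to 951, 814, 775 and 803 TPM, against a larval mean of 773 and range of 412 to 1214. These sums cannot tell hatched larvae from late embryos. Of the 12, 1 was higher in embryos and 6 lower, with a median log2 difference of -1.12. The gene nas-37, for a protease of the molt, stood at 0.206, 0.348, 0.128 and 0.0209 TPM against 19.4 ± 19.5 in larvae (SD, n = 4). Without 1 library in turn, the number higher ranged from 1 to 4. The 9 genes of adult soma, mostly vitellogenins, summed to 1.04, 62.1, 0.872 and 7.07 TPM and to 120, 5555, 52 and 412 reads. vit-6 had 0.527, 118, 1.05 and 8.49 CPM and vit-2 had 0.557, 95.8, 0.327 and 5.66 CPM, and all 6 members with a mean of at least 1 TPM were highest in replicate 2. The adult collagen gene col-62 had no read in any embryo library. The 32 sperm genes summed to 5.14, 5.81, 5.60 and 92.1 TPM but to only 32, 20, 18 and 154 reads; all 9 members with a mean of at least 1 TPM were major sperm protein genes and were highest in replicate 4. These genes are near-identical copies, so single members are uncertain, and none passed the filter for testing. The molting list was highest in replicate 1 in sum and, by TPM, for 7 of its 10 members with a mean of at least 1 TPM. By CPM, an unlike measure, replicates 1, 2 and 4 were highest for 23.2%, 33.6% and 15.2% of all 8144 genes. In replicate 1 the median log2 deviation was 0.31 for the molting list and 0.09 for all genes by TPM. By CPM these were 0.22 and -0.007. The part of larval tissue, adult tissue or sperm in any other difference between libraries was not tested.

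The 4 libraries differed in the balance between these programmes. Each gene's log2(TPM + 1) was set against its mean over the 4 libraries, and the median of this deviation over a list shows where a library lies. Over all 12563 genes with at least 1 TPM it was 0.09, -0.01, -0.07 and -0.05 in replicates 1 to 4. By CPM, over 12010 genes with a mean of at least 1 CPM, it was -0.007, 7.0e-05, -0.02 and -0.0004. Shares of genes by CPM are thus no exact background for counts by TPM. By TPM the deviation of maternal regulators was -0.44, -0.01, 0.35 and 0.07. For eggshell genes it was -0.54, 0.01, 0.17 and 0.29 and for replication and cyclins -0.32, 0.29, 0.01 and 0.02. Replicate 1 was the low library for these 3 lists. For sarcomere genes the deviation was 0.37, -0.20, -0.14 and -0.13, for intestine genes 0.47, -0.26, -0.07 and -0.11 and for neuron genes 0.56, -0.30, -0.16 and -0.12. Here replicate 1 was the high library and replicate 2 the lowest.

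The other lists filled in the range between these extremes. First zygotic genes deviated by -0.17, 0.23, 0.05 and -0.18 and genes of the first divisions by -0.18, 0.20, -0.0001 and -0.03, with replicate 2 highest in both. Lineage transcription factors deviated by -0.01, 0.12, 0.12 and -0.21, low in replicate 4. In replicate 1 they were near the mean by TPM, where all genes stood at 0.09, but at -0.11 by CPM. Epidermal genes stayed close to 0 in every library, at 0.06, -0.02, 0.01 and -0.04. The sum and the median of a list need not name the same library, because a single abundant gene can carry a sum: in 16 of 20 lists the highest library was the same by both, and the exceptions were the eggshell, lineage transcription factor, apical matrix and hatching lists.

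**Figure D3:**
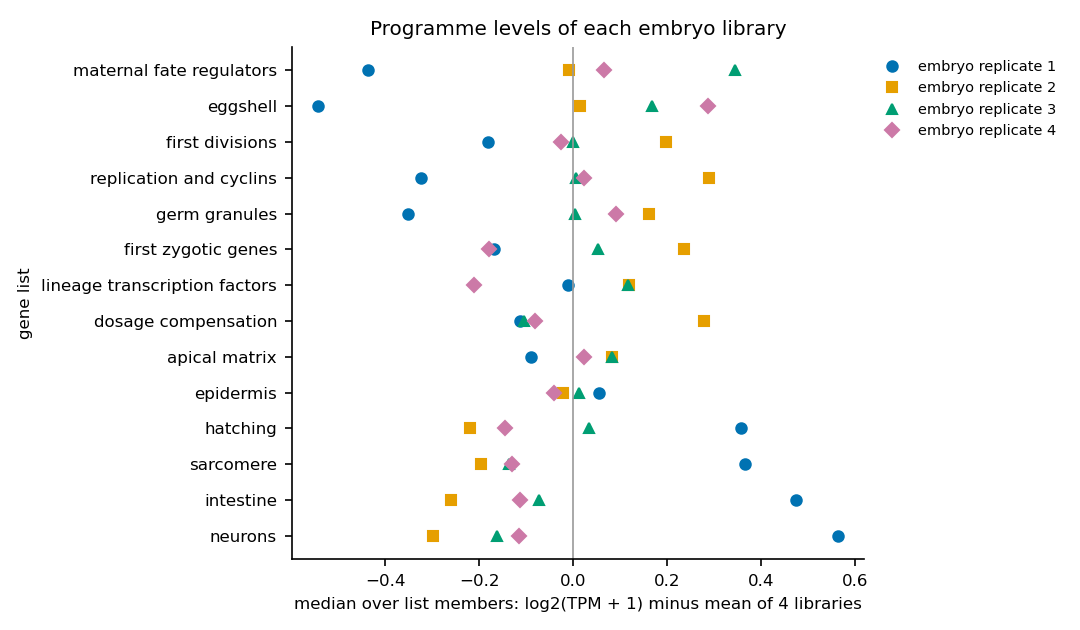
Median over the members of each list of log2(TPM + 1) minus the mean of the 4 embryo libraries; each symbol is 1 library and the vertical line at 0 marks the mean. Replicate 1 lies left of 0 for maternal, eggshell and cell cycle genes and right of 0 for hatching, sarcomere, intestine and neuron genes, while epidermal genes cluster at the line.

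Genes were also grouped by their difference from larvae, with the members of the lists kept in. The same division appeared, which is therefore no separate support for it. Of the 1040 genes that were at least 2 log2 units higher in embryos than in larvae, 65.4% were lowest in replicate 1, against 43.4% of all 8144 genes, with a median deviation of -0.23, 0.14, 0.04 and 0.03 on the log2 scale of CPM. Of the 416 genes at least 2 log2 units lower in embryos, 67.5% were highest in replicate 1, against 23.2% of all 8144 genes, with a median deviation of 0.33, -0.25, -0.03 and -0.06. The 2185 genes not called between stages deviated by -0.03, 0.01, -0.02 and -0.004. Embryo libraries enter the comparison of stages and these deviations alike, so the classes and the deviations share their samples.

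The spread of a typical gene between the embryo libraries was moderate. The median CV over the 8144 genes with a mean CPM of at least 10 was 15.8%, with quartiles of 11.03% and 21.5%. It hardly fell with abundance, from 17.1% at 10 to 30 CPM to 15.2% for the 108 genes of at least 1000 CPM. Counting error alone would give 5.23% and 0.582% in these ranges, so for abundant genes nearly all of the spread was between the samples. Short genes spread more: the 39 genes with under 300 bases of exon had a median CV of 27.3%, against 15.001% for genes of 2500 bases and over. Without replicate 1 the median CV was 12.3%, and without replicate 4, the library nearest the mean, it was 17.6%.

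**Figure D4:**
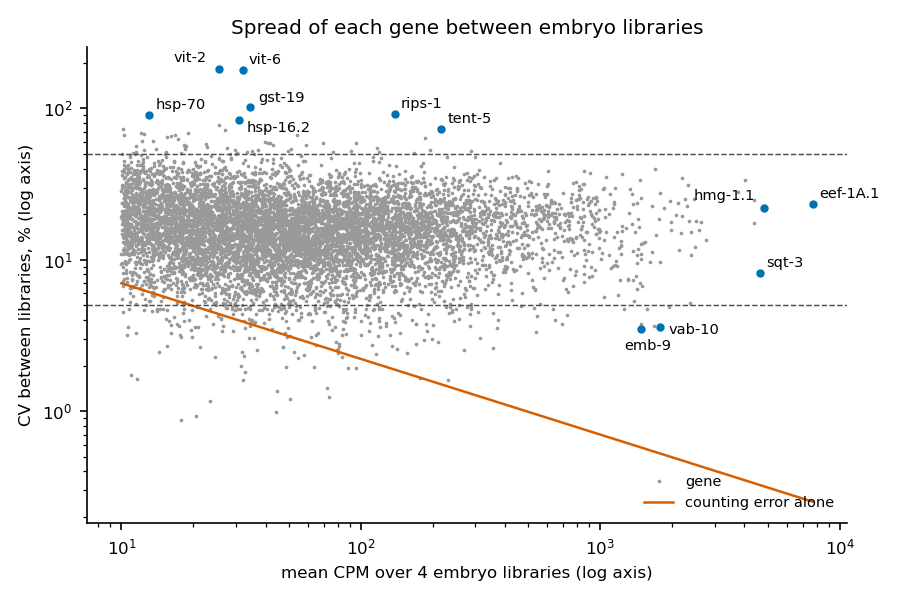
CV between the 4 embryo libraries against mean CPM (both axes log) for 8144 genes; dashed lines mark 50% and 5%, and the solid line is the CV that counting error alone would give. The cloud stays near 15% at every level, with the vitellogenin genes vit-2 and vit-6 at the top and emb-9 and vab-10 as abundant genes with a low spread.

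A CV of at least 50% was reached by 60 genes, 0.737% of the 8144, and 53 of them also reached it by TPM. The highest library was replicate 1 for 35 of them, replicate 3 for 16, replicate 4 for 6 and replicate 2 for 3. Over all 8144 genes, replicates 1 to 4 were highest for 23.2%, 33.6%, 28.1% and 15.2%. The widest spread belonged to the vitellogenin genes vit-2 and vit-6, with CVs of 183% and 179%, which encode yolk proteins made by the adult intestine. Without replicate 2, their CVs were still 138% and 133%, since replicate 4 also lay above replicates 1 and 3.

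A second set of variable genes was high in replicate 1, the highest library for 35 of the 60 genes with a CV of at least 50%. These 35 were of several kinds. Among them were the transthyretin-related gene ttr-15 (77.6, 20.1, 32.04 and 37.9 CPM), the hedgehog-related gene grl-4 (178, 51.5, 163 and 81.8 CPM) and the astacin gene nas-38. The sulfide and hypoxia genes described next are thus only a part of the set, and whether they were over-represented in it was not tested. rips-1, which encodes a methyltransferase-like protein and belongs to the hydrogen sulfide response, had 330.1, 80.7, 69.2 and 74.8 CPM and a CV of 92.1%. Without replicate 1 this CV was 7.71%, so the spread of rips-1 lay in that library. gst-19, for a glutathione transferase, had 86.3, 27.8, 10.7 and 12.9 CPM, with a CV of 103% that was 54.3% without replicate 1. rhy-1, a regulator of the hypoxia-inducible factor, had 504, 262, 218 and 167 CPM, and sqrd-1, for the sulfide oxidising enzyme of mitochondria, had 131, 60.8, 41.3 and 46.6 CPM. In a list of 15 sulfide and hypoxia genes drawn up after these values were seen, replicate 1 was highest for 13 by TPM. By CPM, an unlike measure, it was highest for 23.2% of all 8144 genes. Its median log2 deviation was 0.49 for the list and 0.09 for all genes by TPM. By CPM these were 0.39 and -0.007. The hypoxia pathway gene egl-9 was instead highest in replicate 3, with 146, 157, 226 and 154 CPM. The transcription factor gene hif-1 itself differed little, at 476, 489, 559 and 471 CPM.

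Several genes for heat shock proteins were high in replicates 3 and 4. hsp-16.2, for a small heat shock protein, had 5.89, 12.15, 45.3 and 60.1 CPM and a CV of 84.4%. hsp-70 had 1.52, 4.50, 21.6 and 24.6 CPM, and hsp-110, for a large chaperone of the same kind, had 240.3, 254, 456 and 432 CPM. sip-1, for a small heat shock protein made in embryos, was far more abundant with 1051, 1347, 2613 and 1781 CPM and was highest in replicate 3. The chaperone genes that are expressed without stress were flatter: hsp-1 had 1412, 1565, 1699.8 and 1760.2 CPM and hsp-90 had 1271, 1573, 1317 and 1601 CPM. The endoplasmic reticulum chaperone gene hsp-4 had 253, 363, 282 and 337 CPM, and was not higher in replicates 3 and 4. Reads of the paired copies hsp-16.1 and hsp-16.11, hsp-16.48 and hsp-16.49, and F44E5.4 and F44E5.5 cannot be assigned with certainty, and the list of 21 genes was drawn up after the values were seen. By TPM, 8 of the 21 were highest in replicate 4, 7 in replicate 3, 3 in replicate 1 and 3 in replicate 2. By CPM, an unlike measure, replicates 1 to 4 were highest for 23.2%, 33.6%, 28.1% and 15.2% of all 8144 genes. The list had median log2 deviations by CPM of 0.19 in replicate 3 and 0.15 in replicate 4. Over all genes these were -0.02 and -0.0004.

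Of genes for antimicrobial peptides, nlp-29 had 32.5, 8.42, 13.1 and 19.2 CPM and cnc-4 had 20.2, 6.22, 5.49 and 8.92 CPM. In a list also drawn up after the values were seen, 13 genes had a mean of at least 1 TPM. By TPM, replicate 1 was highest for 8 of these 13. The share over all genes was computed by CPM only, where replicate 1 was highest for 23.2% of the 8144 genes. These shares are on unlike measures and gene sets. In replicate 1 the median log2 deviation was 0.48 for the list and 0.09 for all genes by TPM. By CPM these were 0.84 and -0.007. cnc-10, a gene of the same class, was even at 22.6, 27.8, 22.7 and 28.6 CPM. tent-5, for a poly(A) polymerase-like protein, followed another course with 109.9, 72.5, 419 and 263 CPM, highest in replicate 3. MTCE.34, on the mitochondrial chromosome, had 54.97, 19.8, 10.003 and 17.6 CPM and was highest in replicate 1.

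**Figure D5:**
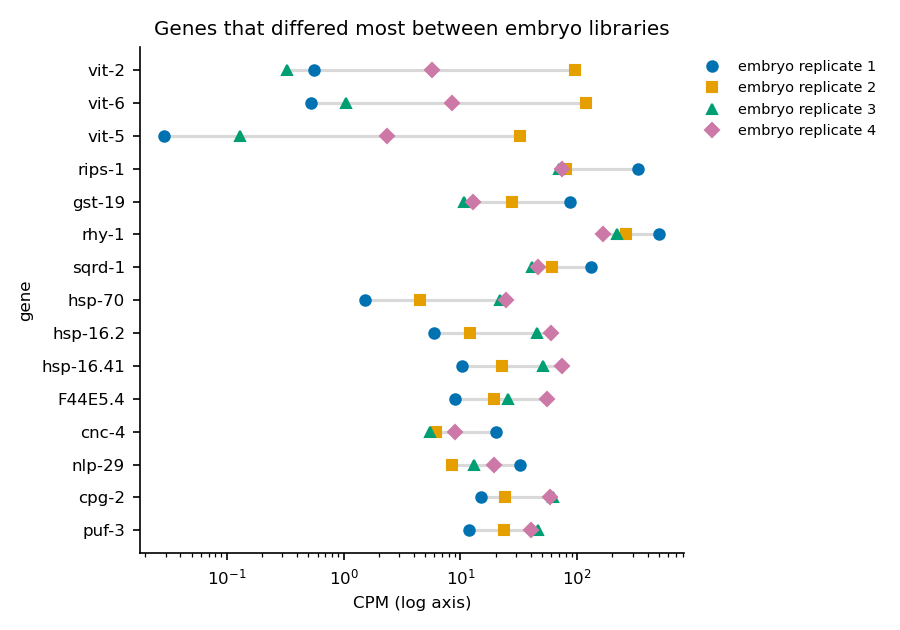
CPM (log axis) of 15 genes that differed strongly between the embryo libraries; each symbol is 1 library and the line joins the lowest and the highest. Vitellogenin genes are highest in replicate 2, rips-1, gst-19, rhy-1 and sqrd-1 in replicate 1, and the heat shock genes plotted in replicate 4.

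At the other end, 253 genes had a CV of at most 5%, but this number was 893 without replicate 1, 563 without replicate 2, 715 without replicate 3 and 472 with counting variance taken off. For 77 of the 253, and for 11 of the 12 lowest, the CV was below that of counting error, so the order at the low end is not resolved. Y116A8C.27, the lowest, had 17.7, 17.6, 17.8 and 17.5 CPM and a CV of 0.875%, against 5.27% from counting alone, and by TPM its CV was 6.89%. Among the 108 genes of at least 1000 CPM, where counting error is small, a few of the lowest CVs are given as examples. emb-9 and let-2, for the type IV collagens of basement membranes, had 1429, 1545, 1455 and 1504 CPM and 2238, 2508, 2321 and 2455 CPM. vab-10, for a spectraplakin that anchors the epidermis, had 1824, 1792, 1688 and 1822 CPM, and atp-2, for the beta subunit of ATP synthase, had 1406, 1453, 1512 and 1527 CPM.

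Between families the median CV ranged from 11.4% to 33.7% over the 42 families with at least 5 genes at a mean CPM of 10 or more. By CPM the most even were tRNA synthetases (11.4%, 32 genes), mitochondrial ribosomal proteins (11.8%, 64 genes) and subunits of mitochondrial respiration (12.4%, 25 genes). By TPM their median CVs were 11.5%, 12.18% and 9.75%, so the order among them depended on the measure. Cytosolic ribosomal proteins lay near all genes at 15.2% (61 genes). Within them rpl-37.2 stood out with 23.1, 13.8, 5.23 and 6.25 CPM, a CV of 68.4%, but by TPM its CV was 13.9%.

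By CPM the most variable families were astacin proteases (33.7%, 6 genes), glutathione transferases (28.4%, 9 genes), Pumilio proteins (28.1%, 8 genes) and neuropeptides (27.998%, 22 genes). By TPM, aspartyl and cysteine proteases (30.6%) lay above glutathione transferases (25.8%) and Pumilio proteins (25.7%). The direction differed between families. Pumilio genes had a median deviation of -0.63, 0.05, 0.37 and 0.25 on the log2 scale of CPM, low in replicate 1, whereas astacin genes had 0.58, -0.39, -0.07 and -0.18, high in replicate 1. Neuropeptide genes had 0.31, -0.46, 0.34 and -0.17, high in replicates 1 and 3. The 32 proteasome genes deviated by -0.42, 0.21, 0.11 and 0.18 with no member under a CV of 15.7%, and the 6 tubulin genes by -0.52, 0.31, 0.18 and 0.06. Replicate 1 was low in both. Only 6 to 9 genes stand behind several of these medians, which carry no test.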

How the data were processed

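Poly(A) RNA was measured in 4 embryo and 4 larvae libraries. Whole-number counts per gene (20389 genes) were deposited; the authors aligned reads to WS220 with Tophat and counted them with HTSeq 0.6.1p1. The authors also deposited TPM values, normalized for length and library size; the submitters' processing notes list Cufflinks 2.2.0 without its role, so how TPM was made is not given in the sources used here. A further 14 TPM columns belong to no labelled sample and were not used, nor were 2 gene names listed more than once or the authors' comparison tables of fold changes and p-values, made with DESeq2. Reads in no gene were 3.26% to 4.32% in embryos. Counts were scaled with TMM factors and embryos compared with larvae by edgeR 4.0.16 (glmQLFTest, filterByExpr, Benjamini-Hochberg adjustment over all genes, limma 3.58.1, R 4.3.3), which was tested on simulated data; DESeq2 1.42.0 was an alternative. CVs were computed over the 4 embryo libraries (Python 3.11.15, numpy 2.4.6, pandas 2.3.3, matplotlib 3.10.9) without a test. TPM from exon lengths used a later annotation, WBcel235, for lengths only. Genes under 1 TPM were left out of list deviations (pseudocount 1). Gene lists, members and tests were chosen with earlier results of these data known; the sulfide, heat shock and antimicrobial lists, and the exon length alternatives, were added after seeing the data. Named were the 20 highest genes by TPM, the 12 highest and 12 lowest CVs, and in each list the 3 most abundant, the 2 most variable and the 2 largest differences in each direction; others were named after their values were seen. Embryo depth was 16300947 to 31292935 gene counts.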

Additional observations from a re-analysis of the deposited data

Results flagged for a closer look

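In 83 groups of 4 embryo values examined, 7 held 1 library far from the other 3, where chance gives about 1 in 20 groups taken at random. These groups overlap and some hold genes named for their spread, so that rate does not apply to them and the number carries no weight. The summed TPM of adult soma genes was 62.1 in replicate 2 and at most 7.07 elsewhere, and 2 of its members, vit-2 (95.8 CPM) and vit-6 (118 CPM), stood apart in the same library. The summed TPM of sperm genes was 92.1 in replicate 4 and 5.14 to 5.81 elsewhere. rips-1 had 330.1 CPM in replicate 1 and 69.2 to 80.7 elsewhere. In replicate 3, rpl-18 had 4714 TPM against 3419 to 3588, and egl-9, for the oxygen-sensing hydroxylase of the hypoxia pathway, had 226 CPM against 146 to 157.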

How the results depend on the processing

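Genes with a CV of at least 50% numbered 60, and 15 at a minimum mean of 50 CPM, 319 at 1 CPM and 46 to 98 with 1 library left out. Genes with a CV of at most 5% numbered 253, and 145 at 50 CPM, 472 with counting variance taken off and 364 to 893 with 1 library left out. The shares of the top 20, 100 and 1000 genes were 6.52%, 18.1% and 56.3% in counts and 9.12%, 25.8% and 63.9% in TPM from exon lengths, and the embryonic lists held 6.72% of counts in place of 3.66% of TPM. The adult soma deviation in replicate 4 was -0.28, but 0.26 with a pseudocount of 0.1 and 0.32 from CPM; par-5 went from -0.43 to 0.058 under library totals only. Requiring a fold change of 2 called 2739 genes higher and 3174 lower. Library totals alone called 6607 higher and 3683 lower, with the median of all genes moved to 0.53 from 0.03 on the log2 scale; the lists then gave 24 genes of first divisions, 3 neuron genes and 6 apical matrix genes higher in embryos. DESeq2 called 5132 and 4965, and leaving out 1 library gave 4898 to 5243 higher and 4816 to 5180 lower. A fit with the replicate block called 4962 and 4806; same-numbered embryo and larvae libraries shared only a number (r across genes -0.15, -0.19, 0.07 and -0.07), and only number 3 correlated best with its own. Of 588 alternatives for 42 named genes, 582 kept the call and direction, 5 lost the call and 1, par-5, turned. For short genes length sets TPM, and for genes under 10 CPM counting error limits the CV.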

Other observations

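A mean of at least 1 TPM was deposited for 155 genes with no embryo read in the count table, among them hsp-16.1 (115, 177, 938 and 786 TPM) and hlh-1 (70.9, 78.1, 71.6 and 65.7 TPM). Counts and TPM therefore do not cover the same genes.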
